A study of Homo sapiens with 12 samples.

Results

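The class I antigen presentation core comprised 9 genes chosen by name, HLA-B, HLA-C, HLA-E, B2M, TAP1, TAP2, PSMB8, PSMB9 and NLRC5, out of 28087 genes in the table. Values are those of each gene's most counted RefSeq transcript, and all 9 genes were among the 13113 genes with enough counts to be tested. RNA was sequenced from MV3, an established human melanoma cell line. The cells received extracellular vesicles (EVs) of M1, M0 or M2 macrophages made from the THP-1 monocytic leukaemia line, or PBS alone (Ctrl), with 3 libraries in each of the 4 groups. The vesicles came from THP-1 cells polarized for 48 h and were given for 24 h at 1e10 particles per well of a 12-well plate. All groups, Ctrl included, had first been kept for 3 h in medium with 1% EV-depleted serum. MV3 is 1 line, the agents used for polarization are not named in the labels, and nothing says that replicates were separate cultures or vesicle preparations, so p-values measure the spread between these libraries.

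Class I molecules display peptides from inside the cell to CD8+ T cells and natural killer cells. Peptides are cut by the proteasome, in which interferon-inducible subunits can replace constitutive ones, are pumped into the endoplasmic reticulum by the TAP transporter, and are loaded onto a heavy chain paired with beta-2-microglobulin. NLRC5, a nucleotide-binding coactivator, drives transcription of the heavy chains, B2M and the TAP and proteasome genes by docking on a promoter complex of RFX, CREB and NF-Y proteins. Melanoma cells are known for lowering class I expression, and interferon-gamma and NF-kB signalling are its best-known inducers.

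Gene totals ran from 9694683 to 14379483 counts per library. Among the 9 genes, counts per library were lowest for PSMB9, at 148 to 218, and highest for B2M, at 4157 to 5982. On the first principal component of all tested genes, which held 43.2% of the variance, the M1 EV libraries lay apart from the other 9. Within groups, M0 EV replicate 1 differed most from its partners, with a chi-square per degree of freedom of 2.03 and 2.34 against replicates 2 and 3, which differed from each other by 1.04. The melanoma markers AXL, CSPG4, MCAM, EGFR, SOX9 and PAX3 passed the filter on low counts, whereas TYR, DCT and S100B had no count in any library, SOX10 had 2 counts in all and MITF at most 12 in a library. Of 20 macrophage markers, 5 had no count in any library, among them CD163 and TYROBP. The summed macrophage level was 80.5 to 82.3 CPM (counts scaled to a common library size, by TMM) in M1 EV libraries, against 67.0 to 72.1 in Ctrl libraries. CD68, which many cells other than macrophages also express, made up 80.6% to 85.3% of this sum in every library. Markers other than CD68 and CD74 added up to 0.398 to 1.96 CPM. CD68 rose in M1 EV against Ctrl (log2 fold change 0.24 ± 0.050, SE, adjusted p = 0.000244, edgeR). The summed melanoma markers were 1608 to 1704 CPM in M1 EV libraries and 1896 to 1935 CPM in Ctrl libraries: AXL and SOX9 fell, by 0.34 and 0.42 on the log2 scale, and MCAM and PAX3 rose, by 0.36 and 0.23. What part these marker differences had in the results below was not tested.

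All 9 genes rose in cells given vesicles of M1 macrophages, by 1.15-fold for B2M to 1.99-fold for HLA-B over Ctrl, and in each gene the 3 M1 EV libraries lay above the 3 Ctrl libraries. Over all tested genes, 14.3% were called higher in this comparison (13.7% lower), and 19.6% had all M1 EV libraries above all Ctrl libraries. The median log2 fold change was 0.34 for the 9 genes and 0.00079 for all tested genes. Tests were edgeR quasi-likelihood tests with Benjamini-Hochberg adjustment over all tested genes, called at an adjusted p below 0.05, and fold changes are log2 values with their standard error (SE). In bulk RNA, a change in the number of expressing cells and a change in RNA per cell cannot be told apart.

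**Figure D1:**
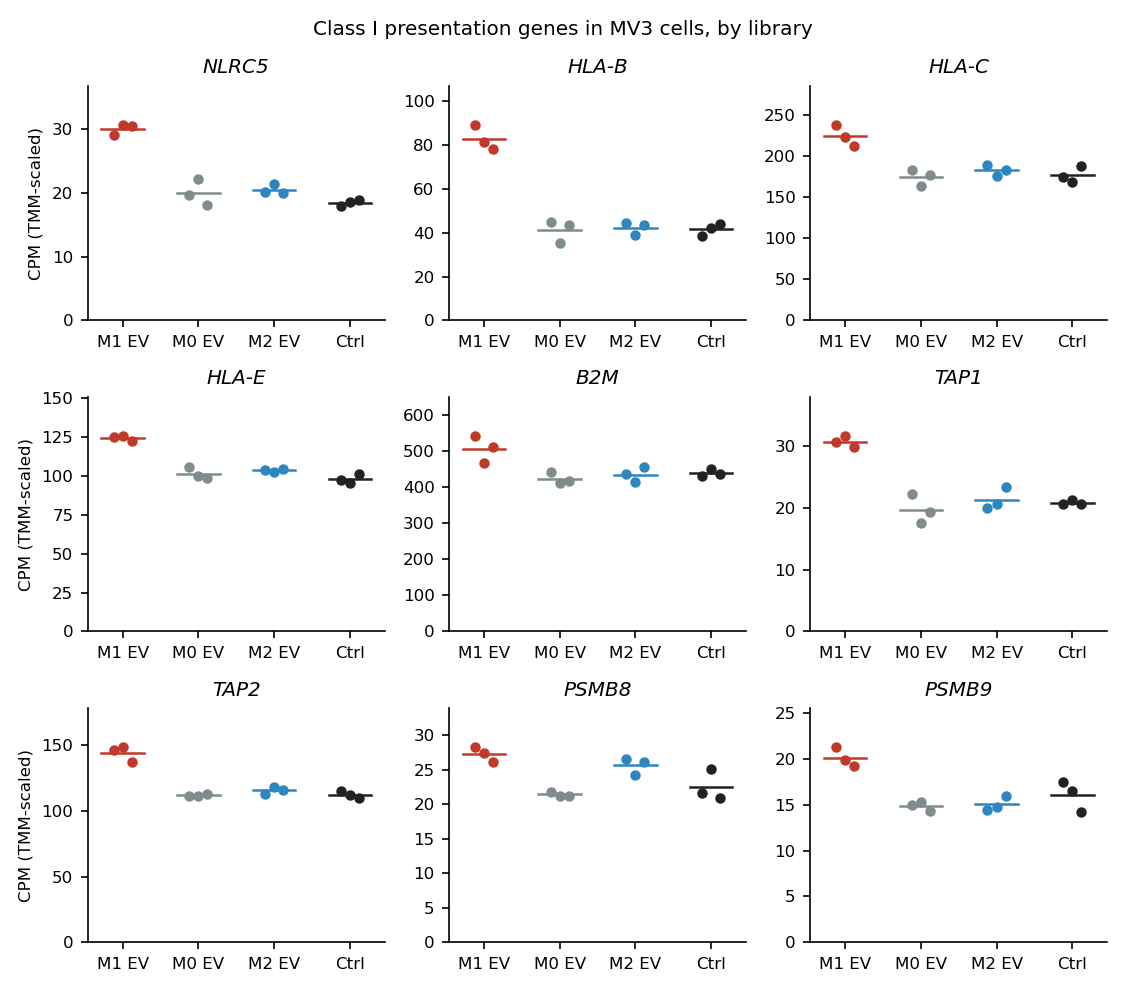
TMM-scaled CPM of the 9 genes in each library (points), with the mean of 3 libraries as a line, for M1 EV, M0 EV, M2 EV and Ctrl. In all panels but PSMB8 the M1 EV points lie above every other point; for PSMB8 the M2 EV points reach 24.2 to 26.6 CPM beside 26.1 to 28.3 CPM in M1 EV.

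NLRC5, the coactivator at the top of the pathway, had 29.1, 30.6 and 30.5 CPM in M1 EV libraries. M0 EV libraries had 19.6, 22.2 and 18.2 CPM, M2 EV libraries 20.1, 21.4 and 19.95 CPM, and Ctrl libraries 18.0, 18.6 and 18.8 CPM. The M1 EV libraries stood above the other 9 without overlap. The log2 fold change against Ctrl was 0.70 ± 0.073 (SE, adjusted p = 5.68e-10, edgeR), a 1.63-fold rise. NLRC5 lies on chromosome 16 at 56989557 to 57083520 (GRCh38.p14), and its 2 annotated transcripts in the table gave log2 fold changes of 0.70 each.

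Among the heavy chains, HLA-B rose most. It had 89.0, 81.1 and 78.0 CPM in M1 EV libraries, 44.9, 35.4 and 43.3 CPM in M0 EV libraries, 44.3, 38.9 and 43.5 CPM in M2 EV libraries, and 38.6, 42.2 and 43.7 CPM in Ctrl libraries. The lowest M1 EV library was well above the highest of the other groups. The log2 fold change against Ctrl was 0.99 ± 0.064 (SE, adjusted p = 1.45e-15, edgeR), and 78 tested genes had a larger one. HLA-B presents peptides to CD8+ T cells and lies on chromosome 6 at 31353875 to 31357179.

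HLA-C, which presents peptides and is also a main ligand of killer-cell immunoglobulin-like receptors, lies on the same chromosome at 31268749 to 31272092. It had 237, 222 and 211 CPM in M1 EV libraries, 183, 163 and 177 CPM in M0 EV libraries, 189, 175 and 183 CPM in M2 EV libraries, and 174, 169 and 187 CPM in Ctrl libraries. The M1 EV libraries again lay above all others. Its log2 fold change against Ctrl was 0.34 ± 0.044 (SE, adjusted p = 1.07e-07, edgeR). HLA-E, which binds leader peptides of other class I chains and is read by the natural killer receptor NKG2A, lies at 30489509 to 30494194. It had 125, 126 and 123 CPM in M1 EV libraries and 97.4, 95.6 and 101 CPM in Ctrl libraries, with 99.0 to 106 CPM in M0 EV and 102 to 105 CPM in M2 EV libraries. Its rise over Ctrl equalled that of HLA-C to 2 decimals (0.34 ± 0.041, SE, adjusted p = 1.3e-08, edgeR).

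Counts of HLA-B relative to HLA-C and to HLA-E were higher in every M1 EV library than in any other library. The log2 ratio of HLA-B to HLA-C counts was -1.41, -1.46 and -1.44 in M1 EV libraries, against -2.17, -1.998 and -2.10 in Ctrl libraries. In M0 EV and M2 EV libraries it lay between -2.20 and -2.03. The log2 ratio of HLA-B to HLA-E counts was -0.49, -0.63 and -0.65 in M1 EV libraries, against -1.34, -1.18 and -1.21 in Ctrl libraries, with -1.50 to -1.19 in M0 EV and -1.40 to -1.23 in M2 EV libraries. Both ratios were chosen after the values had been seen and were not tested.

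HLA class I transcripts resemble each other, and the counts do not show how reads fitting several of them were treated. Of all windows of 50 bases in the matched GENCODE release 29 transcripts, 2.003% of those of HLA-B also occurred in HLA-C, and 2.62% of those of HLA-E also occurred in HLA-G. With windows of 100 bases 0.6% of those of HLA-E occurred in HLA-G. These sequences are those of the reference alleles, and how reads of the alleles of MV3 mapped to them was not tested.

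The upstream sequences of HLA-B and HLA-C are shown because the pair is close in sequence yet differed in response. They are the 250 bases before the annotated start, from RefSeq on GRCh38.p14, minus strand, at chr6:31357180-31357429 for HLA-B and chr6:31272093-31272342 for HLA-C. Capitals mark matches on either strand to 4 motifs: an ISRE-type motif (GAAA, 2 bases of any kind, GAAA), the NF-kB consensus, the Y-box core (CCAAT) and the CRE core (TGACG).
HLA-B: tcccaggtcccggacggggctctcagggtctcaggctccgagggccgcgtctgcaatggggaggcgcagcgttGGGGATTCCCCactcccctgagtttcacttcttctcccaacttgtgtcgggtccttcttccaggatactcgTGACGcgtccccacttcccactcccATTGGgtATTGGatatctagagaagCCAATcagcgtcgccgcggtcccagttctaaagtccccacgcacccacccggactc
HLA-C: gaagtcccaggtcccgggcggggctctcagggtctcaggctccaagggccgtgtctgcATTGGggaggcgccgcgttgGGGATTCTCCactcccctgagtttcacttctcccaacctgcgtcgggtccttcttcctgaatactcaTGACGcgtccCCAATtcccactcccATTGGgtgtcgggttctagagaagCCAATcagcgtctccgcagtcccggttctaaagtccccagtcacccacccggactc
Both windows are 89.0% identical over 254 aligned columns. Both hold an NF-kB consensus match, a CRE core and Y-box cores, which are among the elements described for class I promoters. Neither held an exact match to the ISRE-type motif, and inexact matches were not searched, so such an element may be present. In HLA-B the NF-kB consensus matched at -177 and at -176 from the start, each on both strands, and these matches overlap. HLA-C had 1 match, at -172. Over all 35116 annotated upstream windows of this length, 9.96% held the NF-kB consensus, 3.02% the ISRE-type motif, 32.0% the Y-box core and 21.2% the CRE core. A match describes letters only, and binding was not measured.

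B2M encodes the light chain shared by all class I molecules and is on chromosome 15 at 44711517 to 44718145. It was the most abundant of the 9 genes, with 543, 468 and 511 CPM in M1 EV libraries and 431, 451 and 438 CPM in Ctrl libraries. M0 EV libraries had 442, 413 and 417 CPM and M2 EV libraries 436, 415 and 455 CPM. The lowest M1 EV library, replicate 2, was above the highest library of the other groups, M2 EV replicate 3. The rise over Ctrl was the smallest of the 9 genes (0.20 ± 0.040, SE, adjusted p = 0.000108, edgeR). Its upstream window, chr15:44711267-44711516 on the plus strand, is given because it holds overlapping ISRE-type matches at -144 and -138 beside an NF-kB consensus match at -125.
B2M: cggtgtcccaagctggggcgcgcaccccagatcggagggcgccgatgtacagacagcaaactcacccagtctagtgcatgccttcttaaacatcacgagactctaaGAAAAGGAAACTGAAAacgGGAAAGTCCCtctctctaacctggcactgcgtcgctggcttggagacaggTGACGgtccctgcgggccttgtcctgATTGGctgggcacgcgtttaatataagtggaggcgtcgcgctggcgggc

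TAP1 and TAP2 form the peptide transporter, and their genes lie with PSMB8 and PSMB9 in a stretch of 38021 bases in the class II region of the major histocompatibility complex. TAP1 (chromosome 6, 32845209 to 32853704) had 30.8, 31.6 and 29.8 CPM in M1 EV libraries, against 20.6, 21.3 and 20.6 CPM in Ctrl libraries. It had 22.3, 17.5 and 19.4 CPM in M0 EV and 19.9, 20.7 and 23.4 CPM in M2 EV libraries, all below the M1 EV libraries. TAP1 had the third largest rise of the 9 genes (0.56 ± 0.076, SE, adjusted p = 1.93e-07, edgeR).

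TAP2 (32821831 to 32838739) was the more abundant subunit. It had 146, 148 and 137 CPM in M1 EV libraries and 115, 112 and 109 CPM in Ctrl libraries, with 111 to 113 CPM in M0 EV and 113 to 118 CPM in M2 EV libraries. Its log2 fold change against Ctrl was 0.36 ± 0.040 (SE, adjusted p = 2.67e-09, edgeR). Per kilobase, TAP2 stood at 25.3 ± 1.1 CPM in M1 EV libraries and 19.7 ± 0.52 CPM in Ctrl libraries, and TAP1 at 10.4 ± 0.31 CPM in M1 EV libraries and 7.04 ± 0.13 CPM in Ctrl libraries (SD, n = 3). The gap between both subunits was smaller in M1 EV libraries: the log2 ratio of TAP1 to TAP2 counts was -2.25 to -2.20 there and -2.49 to -2.39 in Ctrl libraries, which was not tested.

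PSMB9, also called LMP2, is an inducible catalytic proteasome subunit and lies at 32854192 to 32859851, back to back with TAP1. It had 21.3, 19.9 and 19.2 CPM in M1 EV libraries, against 17.5, 16.4 and 14.2 CPM in Ctrl libraries. The M0 EV libraries had 15.0, 15.3 and 14.4 CPM and the M2 EV libraries 14.5, 14.7 and 15.9 CPM. Its log2 fold change against Ctrl was 0.33 ± 0.083 (SE, adjusted p = 0.00206, edgeR). Without Ctrl replicate 3, the lowest Ctrl library, it was 0.24 with an adjusted p of 0.0502, and the number of genes called higher fell to 8 of 9.

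PSMB8, or LMP7, at 32840717 to 32844679, had 28.3, 27.4 and 26.1 CPM in M1 EV libraries and 21.6, 25.1 and 21.0 CPM in Ctrl libraries. The log2 fold change was 0.28 ± 0.073 (SE, adjusted p = 0.00317, edgeR), and its second transcript gave 0.27. In M2 EV libraries PSMB8 had 26.6, 24.2 and 26.2 CPM, which overlaps the M1 EV libraries, and in M0 EV libraries 21.8, 21.3 and 21.3 CPM. The antisense gene PSMB8-AS1, with 44 to 88 counts per library, overlaps PSMB8 and TAP1. The labels call the libraries directional, but no source used here says if strand entered the counting, so reads of both genes cannot be told apart.

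The region between TAP1 and PSMB9 is shown because both starts lie only 488 bases apart, and TAP1 and PSMB9 rose by 0.56 and 0.33. The windows run outward from the middle, chr6:32853705-32853954 on the minus strand for TAP1 and chr6:32853942-32854191 on the plus strand for PSMB9, and share 13 bases. Capitals mark the same 4 motifs.
TAP1: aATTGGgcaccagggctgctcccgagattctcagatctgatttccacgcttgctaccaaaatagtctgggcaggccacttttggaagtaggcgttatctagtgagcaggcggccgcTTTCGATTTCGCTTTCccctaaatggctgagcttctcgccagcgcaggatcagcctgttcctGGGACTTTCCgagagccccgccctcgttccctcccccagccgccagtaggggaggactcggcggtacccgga
PSMB9: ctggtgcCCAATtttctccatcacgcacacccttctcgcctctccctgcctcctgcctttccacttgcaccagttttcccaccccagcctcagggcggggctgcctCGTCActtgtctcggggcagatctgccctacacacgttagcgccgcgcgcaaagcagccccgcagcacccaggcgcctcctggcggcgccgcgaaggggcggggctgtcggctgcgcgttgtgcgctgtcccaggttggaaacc
The TAP1 window shown held overlapping ISRE-type matches at -134 and -128 and an NF-kB consensus match at -72. The window of the other annotated TAP1 start, chr6:32852762-32853011, held no match to any of the 4 motifs. The PSMB9 window held a CRE core at -144. A Y-box core lies in the 13 shared bases and so counts for both windows, at -249 from the TAP1 start and -243 from the PSMB9 start. TAP2 had 1 ISRE-type match, at -58, and no NF-kB consensus match, and PSMB8 had a CRE core at -69 in 1 of its 2 windows. HLA-E and NLRC5 were not matched to a sequence.

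**Figure D2:**
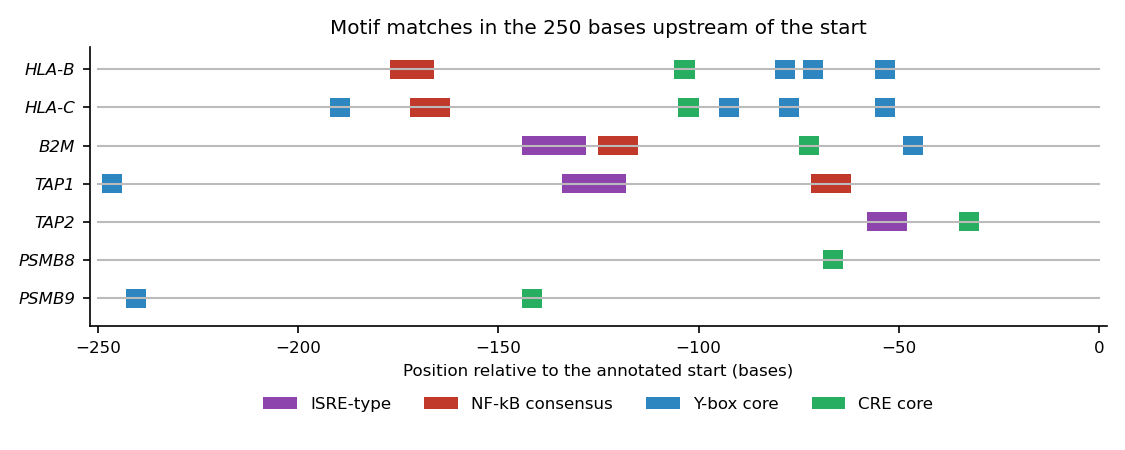
Motif matches on either strand in the 250 bases before the annotated start of 7 genes, by position in bases; for TAP1 and PSMB8 matches from both annotated starts are drawn on 1 line. NF-kB consensus matches are drawn for HLA-B, HLA-C, B2M and TAP1, and ISRE-type matches for B2M, TAP1 and TAP2. Inexact matches were not searched.

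The inducible proteasome subunits were set against the constitutive subunits that they replace: PSMB8 against PSMB5, PSMB9 against PSMB6 and PSMB10 against PSMB7. PSMB5, PSMB7 and PSMB10 rose as well in M1 EV against Ctrl, with log2 fold changes of 0.16 ± 0.038 (adjusted p = 0.00147), 0.24 ± 0.039 (adjusted p = 5.12e-06) and 0.24 ± 0.056 (SE, adjusted p = 0.00113, edgeR). PSMB6 stood at 0.085 ± 0.038 (SE, adjusted p = 0.0899). The log2 ratio of PSMB9 to PSMB6 counts was -2.94 ± 0.080 in M1 EV libraries and -3.18 ± 0.15 in Ctrl libraries (SD, n = 3), a difference of 0.25 with groups that did not overlap (exact permutation test, 2-sided, p = 0.1, the smallest possible with 3 against 3, and 0.3 adjusted over the 3 ratios). PSMB8 to PSMB5 differed by 0.12 (exact p = 0.4, adjusted 0.6) and PSMB10 to PSMB7 by -0.0024 (exact p = 1.0, adjusted 1.0). Without Ctrl replicate 2 the PSMB8 to PSMB5 difference was 0.19, without Ctrl replicate 3 it was 0.068, and without Ctrl replicate 3 the PSMB9 to PSMB6 difference was 0.16. Per kilobase, PSMB5, PSMB6 and PSMB7 stood at 125, 177 and 203 CPM in M1 EV libraries, against 24.2, 25.7 and 39.4 CPM for PSMB8, PSMB9 and PSMB10.

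**Figure D3:**
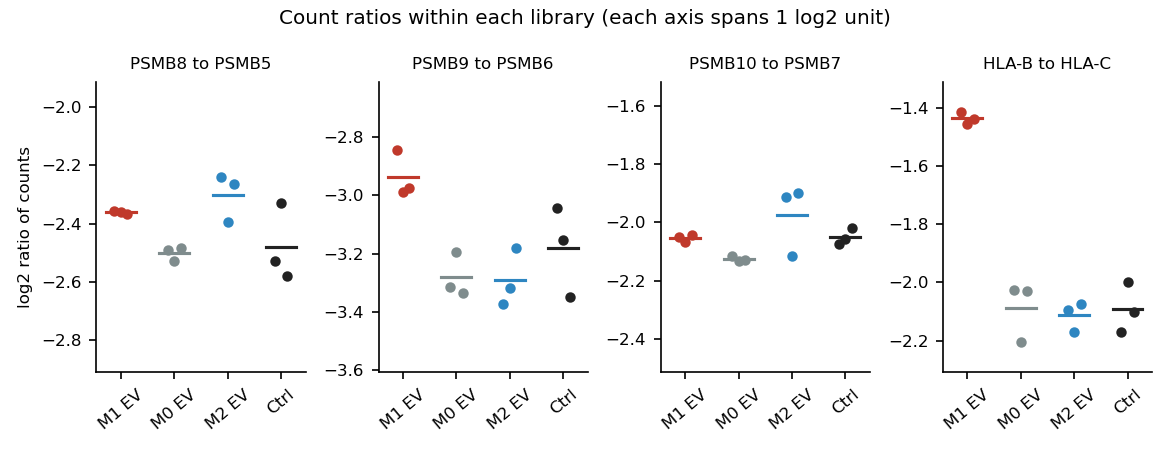
Log2 ratios of counts within each library (points; lines are means of 3) for the 3 pairs of inducible and constitutive proteasome subunits and for HLA-B to HLA-C, in M1 EV, M0 EV, M2 EV and Ctrl. HLA-B to HLA-C lies at -1.46 to -1.41 in M1 EV libraries, above all others, whereas the M1 EV points of PSMB8 to PSMB5 and of PSMB10 to PSMB7 lie within the range of the other groups.

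On the scale of CPM per kilobase the order of levels in Ctrl libraries was B2M (467 ± 11), HLA-C (115 ± 6.3), HLA-E (37.7 ± 1.1), HLA-B (26.8 ± 1.7), then PSMB9 (20.5 ± 2.1), PSMB8 (20.1 ± 2.0) and TAP2 (19.7 ± 0.52), which overlapped, then TAP1 (7.04 ± 0.13) and NLRC5 (2.75 ± 0.064; SD, n = 3). In M1 EV libraries HLA-B, at 50.5 to 57.5, was above HLA-E, at 47.1 to 48.4, and in Ctrl libraries it was below, at 24.9 to 28.3 against 36.7 to 38.9. Lengths are those of matched GENCODE transcripts, and that of HLA-C came from its second transcript.

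The comparisons with the other vesicles also had the core genes higher in M1 EV. Against M0 EV all 9 were called higher and none lower, where 12.5% of all tested genes were called higher and 12.8% lower. Their libraries did not overlap in any of the 9, as in 18.2% of all tested genes. Log2 fold changes ran from 0.26 ± 0.040 for B2M (SE, adjusted p = 3.26e-06) to 0.99 ± 0.063 for HLA-B (SE, adjusted p = 9.49e-16, edgeR), and PSMB9 rose by 0.43 ± 0.083. Against M2 EV, 8 of 9 were called higher and did not overlap, beside 12.6% of all tested genes called higher, 12.0% called lower and 18.1% with all M1 EV libraries above all M2 EV libraries. The exception was PSMB8, whose log2 difference was 0.092 ± 0.067 (SE, 95% interval -0.045 to 0.23, adjusted p = 0.358, edgeR). NLRC5 rose by 0.60 ± 0.070 over M0 EV and by 0.55 ± 0.068 over M2 EV, and TAP1 by 0.63 ± 0.075 and 0.52 ± 0.072 (SE).

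With vesicles of M0 macrophages, none of the 9 genes was called against Ctrl (edgeR, DESeq2 and limma-voom alike, with 0 of 9 at an unadjusted p below 0.05 in edgeR, beside 5.07% of all tested genes). In this comparison 0.00763% of all tested genes were called higher and 0.00763% lower. Log2 fold changes ran from -0.10 ± 0.087 for PSMB9 (SE, 95% interval -0.28 to 0.073) to 0.11 ± 0.079 for NLRC5 (SE, 95% interval -0.054 to 0.27). For HLA-B the interval was -0.15 to 0.14. Without M0 EV replicate 1 the count of core genes was also 0, while 80 of all genes were called higher and 7 lower, and against M1 EV all 9 genes were still called.

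Vesicles of M2 macrophages gave no call among the 9 genes either (edgeR, DESeq2 and limma-voom, with 1 of 9 at an unadjusted p below 0.05 in edgeR, against 6.21% of all tested genes), beside 0.0153% of tested genes called higher and 0.0305% lower. PSMB8 was that gene, at 0.19 ± 0.071 (SE, 95% interval 0.043 to 0.33, adjusted p = 0.63, edgeR). For NLRC5 and HLA-E the 3 M2 EV libraries lay above the 3 Ctrl libraries, with log2 fold changes of 0.15 ± 0.076 (SE, adjusted p = 0.818) and 0.079 ± 0.041 (SE, adjusted p = 0.827). Over all tested genes, 5.80% did so. M2 EV against M0 EV had no call among the 9 genes or among all tested genes (0.00% higher and 0.00% lower), and 1 of 9 reached an unadjusted p below 0.05 in edgeR, beside 3.41% of all tested genes. It was again PSMB8, at 0.25 ± 0.070 (SE, adjusted p = 0.902, edgeR), whose M2 EV libraries lay above the M0 EV libraries, as in 4.54% of all tested genes. DESeq2 and limma-voom also called none of the 9. Without M0 EV replicate 1, 36 of all genes were called lower in M2 EV against M0 EV, and 18 were higher and 30 lower in M2 EV against Ctrl. Without Ctrl replicate 2, the genes called lower in M2 EV against Ctrl numbered 22.

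**Figure D4:**
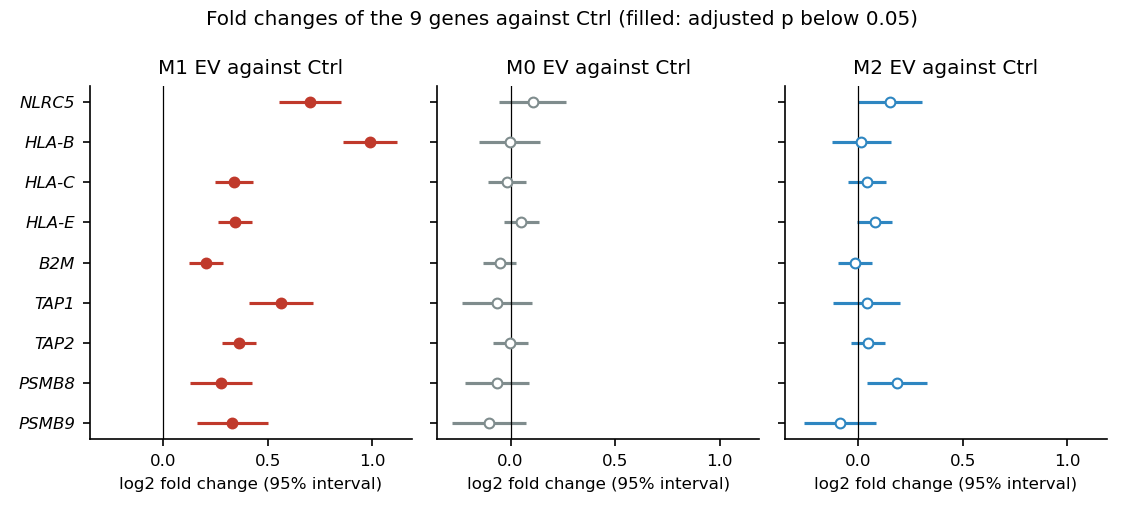
Log2 fold changes of the 9 genes against Ctrl with 95% intervals, for M1 EV, M0 EV and M2 EV; filled points have an adjusted p below 0.05. The M1 EV values lie at 0.20 to 0.99 and are all filled, and those of M0 EV (-0.10 to 0.11) and M2 EV (-0.085 to 0.19) are all open.

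The rest of the class I pathway was read from a list of 24 other genes, all tested. With M1 vesicles 13 of them were higher than in Ctrl and 1 lower, beside 14.3% and 13.7% of all tested genes. The median log2 fold change of the list was 0.13. PSME2, a subunit of the PA28 proteasome activator, rose by 0.44 ± 0.051 and TAPBP, or tapasin, which bridges TAP and the heavy chain, by 0.28 ± 0.040 (SE). THOP1, a peptidase that trims cytosolic peptides, rose by 0.23 ± 0.044 (SE). LNPEP, a peptidase of the cross-presentation pathway, was the gene that fell (-0.15 ± 0.056, SE, adjusted p = 0.0387, edgeR). It is named after its value was seen, and no gene of the list was lower with DESeq2, with transcripts summed, or without any 1 of the 3 Ctrl libraries or M1 EV replicate 1. M0 EV and M2 EV against Ctrl gave no call in this list.

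Of 30 genes of the interferon-gamma axis and of class I regulation, 24 were tested. In M1 EV against Ctrl 9 of them were higher and 2 lower (median 0.16), beside 14.3% of all tested genes higher and 13.7% lower. IFNG, CXCL9 and CXCL10 had no count in any library. RELB, an NF-kB subunit, had the largest rise of the list, at 53.2 ± 3.1 CPM in M1 EV and 14.9 ± 1.6 CPM in Ctrl libraries (SD, n = 3; 1.83 ± 0.072, SE, adjusted p = 2.37e-22, edgeR). NFKB1 rose by 0.61 ± 0.042, RELA by 0.20 ± 0.043 and SOCS3, a feedback inhibitor of cytokine signalling, by 0.26 ± 0.064 (SE). Of the interferon-related genes, GBP1 rose by 0.62 ± 0.068 and IRF9 by 0.52 ± 0.082 (SE).

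IRF1, the transcription factor that links interferon-gamma to class I and NLRC5, had 62.0 ± 2.3 CPM in M1 EV libraries and 64.3 ± 1.2 CPM in Ctrl libraries (SD, n = 3). It did not pass the test (-0.055 ± 0.047, SE, 95% interval -0.15 to 0.041, adjusted p = 0.428, edgeR). The kinases JAK1 and JAK2, named after their values were seen, were the genes that fell (-0.14 ± 0.036 and -0.25 ± 0.088, SE), and 1 of them was left with DESeq2 and without Ctrl replicate 1 or 2 or M1 EV replicate 1 or 3. The RFX, NF-Y and CREB1 subunits with which NLRC5 acts were grouped after the values were seen. Of these, edgeR called 0 of 7, beside 14.3% of all tested genes called higher and 13.7% lower. Their log2 fold changes ran from -0.14 to 0.25, and the lowest adjusted p was 0.138 (edgeR).

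**Figure D5:**
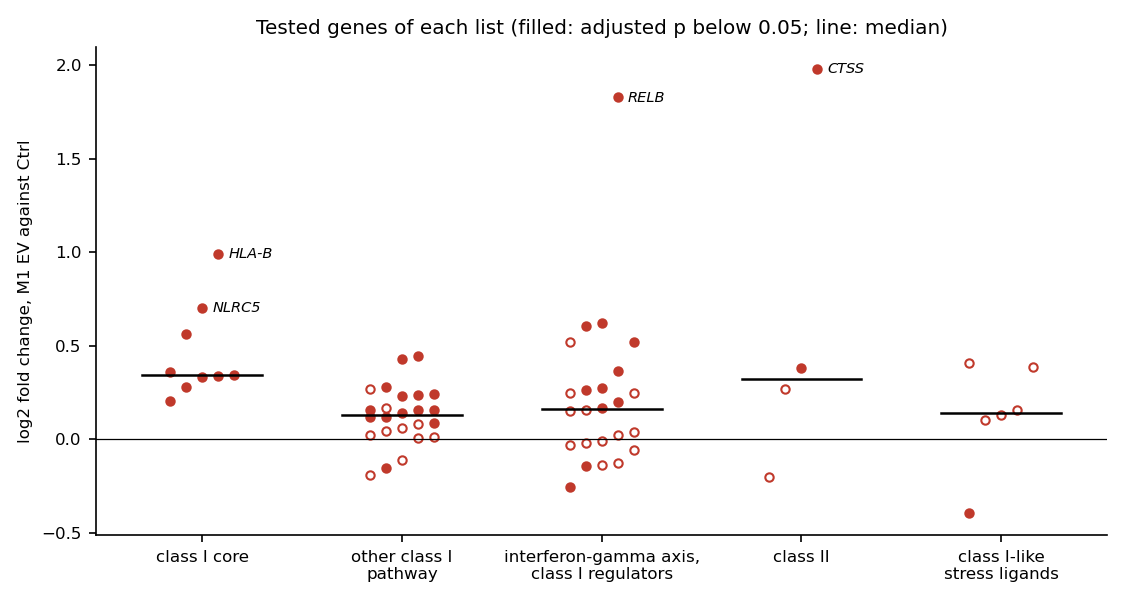
Log2 fold change in M1 EV against Ctrl of each tested gene (points; filled at an adjusted p below 0.05), by gene list, with the median of each list as a line. The medians are 0.34 for the 9 core genes and 0.13 for the other class I pathway genes. They are 0.16 for the interferon-gamma axis and class I regulators and 0.14 for the 6 tested stress ligands. For the 4 tested genes of the class II list, none of them an HLA gene, the median is 0.32.

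Few class II genes were detected: of 13 genes, 7 had no count in any library, HLA-DRA among them. The 4 that were tested, CIITA, CD74, CTSS and IFI30, include no HLA gene. CIITA, the class II coactivator and a relative of NLRC5, had 9.68 ± 0.47 CPM in M1 EV libraries and 11.1 ± 1.8 CPM in Ctrl libraries (SD, n = 3; -0.20 ± 0.11, SE, adjusted p = 0.188, edgeR). CD74, the invariant chain, stood at 0.27 ± 0.11 (SE, adjusted p = 0.0554). CTSS had few counts, 4 to 39 per library over all groups, with 3.25 ± 0.95 CPM in M1 EV and 0.81 ± 0.27 CPM in Ctrl libraries (SD, n = 3). The lysosomal genes CTSS and IFI30 rose, by 1.98 ± 0.28 and 0.38 ± 0.11 (SE). This made 2 of the 4 genes called higher, beside 14.3% of all tested genes, and 1 was called with DESeq2 or without Ctrl replicate 3.

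The genes whose group means were most like the average of the 9 genes were AEBP1, TIFA, LHFPL2, SAT1 and TPM1. Likeness was the root mean square difference of centred group means of log2 CPM over the 4 groups, among genes with at least 10 CPM on average outside the lists used here. The difference was 0.00961 for AEBP1, 0.0152 for TIFA, 0.0192 for LHFPL2, 0.0198 for SAT1 and 0.0199 for TPM1, and log2 fold changes in M1 EV against Ctrl were 0.47, 0.45, 0.45, 0.42 and 0.41 in that order.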

How the data were processed

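The deposited values were expected counts for 70507 RefSeq transcripts, without normalization and in steps of 0.5 (51.3% of non-zero values not whole). Per the submitters' processing notes, STAR 2.6.1b, HOMER 4.10 and hg38 were used; per the labels' protocols, libraries were directional and poly(A)-selected. The column of M0 EV replicate 1 misspells the cell line and was matched by the rest of its name. Transcripts were named from RefSeq GRCh38.p14 (69830) or GENCODE 29 (327); 350 stayed unnamed, with at most 0.0643% of counts. The most counted transcript of each gene was rounded to whole counts. Tests used edgeR 4.0.16 in R 4.3.3 (default filter, TMM factors 0.993 to 1.007, 1 term per group, all 12 libraries, 8 residual degrees of freedom) over 6 comparisons, after a check on simulated counts. Over all core genes, counts per gene and library ran from 148 to 5982, which bounds the counting error. Lists, members and the naming rule (all members, up to 6 called genes per list by adjusted p, 10 fixed genes) were chosen with earlier results of these data known. Alternatives were DESeq2 1.42.0, limma-voom 3.58.1, scaling, filters, transcript choice, a replicate block and leaving out libraries. Some genes that the naming rule covers are not reported here.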

Additional observations from a re-analysis of the deposited data

How the results depend on the processing

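Under the 22 or 23 alternatives, every count of core genes called stayed as reported except in M1 EV against Ctrl, where leaving out 1 library gave 8 to 9. Of the alternatives that leave out no library, 1 turned a direction: HLA-B in M0 EV against Ctrl stood at 0.00055 with M0 EV replicates 2 and 3 summed. Leaving out single libraries turned uncalled log2 fold changes. In M0 EV against Ctrl the ranges were -0.077 to 0.082 for HLA-B, -0.060 to 0.023 for HLA-C, -0.17 to 0.0031 for TAP1, -0.024 to 0.015 for TAP2 and -0.12 to 0.011 for PSMB8. In M2 EV against Ctrl they were -0.034 to 0.078 for HLA-B, -0.048 to 0.020 for B2M and -0.032 to 0.078 for TAP1. In M2 EV against M0 EV they were -0.069 to 0.091 for HLA-B, -0.023 to 0.043 for PSMB9 and -0.015 to 0.12 for NLRC5. The difference in log2 ratio ran from -0.014 to 0.013 for PSMB10 to PSMB7, 0.068 to 0.19 for PSMB8 to PSMB5 and 0.16 to 0.32 for PSMB9 to PSMB6. The cause was not tested. With the replicate number as a block, 9 core genes were higher in M1 EV against Ctrl and the counts of core genes in the other comparisons did not move; same-numbered libraries of M1 EV and Ctrl had correlations of deviations of -0.048 to -0.041, so the numbers were not used as pairs. Of the other class I genes, 11 were higher in M1 EV against M2 EV, and 7 without M2 EV replicate 2. Over all genes, M1 EV against Ctrl gave 1881 higher and 1802 lower calls, and 1312 and 1243 with DESeq2, which gave 1077 lower in M1 EV against M0 EV (1683 with edgeR) and 997 in M1 EV against M2 EV (1580). In M0 EV against Ctrl 1 gene was higher and 1 lower, 18 and 2 with the replicate block, and 47 and 6 without the low-count filter. In M2 EV against Ctrl 2 were higher and 4 lower, 24 and 7 without that filter, and 25 and 37 with only those groups in the fit.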

Other observations

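Class I-like ligands of natural killer and innate-like T cells were read from a further list. Of its 11 genes, 6 were tested. In M1 EV against Ctrl none rose and 1 fell by edgeR, beside 14.3% of all tested genes called higher and 13.7% lower. MR1, which presents microbial metabolites to MAIT cells, was that gene, with 4.65 ± 0.41 CPM in M1 EV libraries and 6.14 ± 0.76 CPM in Ctrl libraries (SD, n = 3; log2 fold change -0.39 ± 0.15, SE, adjusted p = 0.0476). No gene of the list was lower with DESeq2, without the low-count filter or without Ctrl replicate 1 or 3 or M1 EV replicate 1 or 3; with transcripts summed, 1 gene was higher. MICA and MICB, stress-induced ligands of the receptor NKG2D, stood at 0.13 ± 0.070 and 0.16 ± 0.072 (SE, adjusted p = 0.181 and 0.127, edgeR).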
